A study of Triticum aestivum with 3 samples.

Results

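The set described here holds the miRNA sequences of wheat leaves that carry a wheat (tae) or Aegilops (ata) name, compared between seedlings given dithiothreitol (DTT) together with tauroursodeoxycholic acid (TUDCA) and seedlings given DTT alone. Its entries were taken by name from 1 table of 1969 rows. The 279 rows with such names hold 261 distinct sequences, and the 185 with a sum of at least 20 normalized reads over the 4 pools compared were kept, of 1896 distinct sequences in the table. The other 76 fell under that floor. The entries just inside it, tae-miR9679-5p, tae-MIR1121-p3 and ata-miR166c-5p, had sums of 20.8, 21.02 and 21.4, and the nearest outside had 18.2, 18.1 and 18.04. Aegilops is the genus that gave bread wheat its D genome. Of the 185 entries, 122 carry tae and 63 carry ata names. By the table's own marks, 58 match a registered miRNA exactly, 48 differ from one at an end or a base, and 79 are another stretch of a registered precursor.

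Both groups received DTT, a reducing agent that disturbs disulfide bonds in the endoplasmic reticulum, so the groups differ in TUDCA, a bile acid that serves as a chemical chaperone. Leaves were taken after 2 days of treatment, also in the control group, whose values are given for orientation. Each of the 3 treatments is 1 sample that was read as 2 RNA pools, 6 pools in all. Both pools of a treatment came from the same set of 3 biological replicates, their division was not given in the sources used here, and the labels state no dose. The pools were treated as repeat runs, so no p-value was computed, and every value describes these libraries, not the treatments. A group with TUDCA alone was not analysed here.

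Plant miRNAs are cut from hairpin precursors, loaded into an ARGONAUTE protein, and guide it to mRNAs with nearly full pairing, which are then cut or blocked. The cut leaves a mature strand and a passenger strand, the 5p and 3p arms, of which the mature strand is usually the more abundant. Old families such as miR156, miR166 and miR396 are shared by most land plants with the same or nearly the same sequence and regulate transcription factors. Young families, among them many of the wheat miRNAs numbered above miR5000, are found in the grasses or in wheat and its relatives only. Passenger strands often differ between species even where the mature strand is the same.

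The results turn on near-identical sequences that behaved differently, so those are shown first, as the table gives them (T for U), 5' to 3', with the seed (bases 2 to 8) in capitals. They are isoforms of miR396, which targets growth-regulating factors, of miR166, which targets class III HD-ZIP factors, and of miR167, which targets the auxin response factors ARF6 and ARF8.
ata-miR396e-5p: tTCCACAGctttcttgaactg
ata-miR396c-5p: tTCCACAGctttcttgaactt
ata-miR396a-5p: tCCACAGGctttcttgaactg
ata-miR166a-3p: tCGGACCAggcttcattcccc
ata-miR166c-3p: tCGGACCAggcttcattcctt
ata-miR5168-3p: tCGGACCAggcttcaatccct
ata-miR167a-5p: tGAAGCTGccagcatgatcta
ata-miR167b-5p: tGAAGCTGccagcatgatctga
tae-miR167c-5p: tGAAGCTGccagcatgatctgc
ata-miR396e-5p and ata-miR396c-5p differ at 1 base and ata-miR396a-5p differs from ata-miR396e-5p at 2, which also shifts its seed. The 3 sequences of the miR166 type have the same seed, as have those of miR167, and each differs from ata-miR166a-3p or ata-miR167a-5p by 1 or 2 edits. On scaffolds of the TGACv1 wheat assembly, the table places the precursor of ata-miR396e-5p at bases 2909 to 3014 of scaffold 623533 (arm 7DS, plus strand) and that of ata-miR396a-5p at 10056 to 10191 of scaffold 160368 (2DL, minus strand). ata-miR166a-3p is placed at 38298 to 38397 of scaffold 433196 (5DL, minus strand) and ata-miR166c-3p at 17527 to 17617 of scaffold 528051 (6DL, minus strand). In all, 167 entries are placed on such scaffolds and 18 on other sequences, and gene annotation of these positions was not used here.

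A further set is shown because it carries the values by role below, with regulators of copper proteins and laccases (miR398, miR528, miR397, miR408), the flowering regulator miR5200, and abundant young wheat miRNAs.
tae-miR398: tGTGTTCTcaggtcgcccccg
ata-miR398f-5p_L+1R-1: aGGGTCGAactgagaacacat
ata-miR528-5p: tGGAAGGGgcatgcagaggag
tae-miR397-5p: tCACCGGCgctgcacacaatg
tae-MIR397-p5: tTGAGTGCagcgttgatgaac
tae-miR408_L-1: tGCACTGCctcttccctggc
tae-miR5200: tGTAGATActccctaaggctt
tae-miR9674b-5p: aTAGCATCatccatcctaccc
tae-miR9772: tGAGATGAgattaccccatac
tae-miR7757-5p_1ss2TC: aCAAAACCttcagctatccatc
tae-miR9774_L+2: aACAAGATattgggtatttctgtc
tae-miR5048-5p: tTTGCAGGttttaggtctaagt
tae-miR398 is placed at 245824 to 245943 of scaffold 220641 (3B), ata-miR528-5p at 56029 to 56134 of scaffold 321146 (4BL), and both miR397 sequences at 26213 to 26305 of scaffold 486753 (6AS). tae-miR5200 is placed at 110211 to 110303 of scaffold 592091 (7BS), and tae-miR9772 at 64647 to 64738 of scaffold 434125 (5DL).

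On the summed pools, most wheat and Aegilops entries were higher with DTT+TUDCA than with DTT alone. A log2 ratio here is that of the 2 summed DTT+TUDCA pools plus 1 over the 2 summed DTT pools plus 1, and an entry counts as higher or lower when it is at least 2-fold apart. Of the 185 entries, 153 (82.7%) were higher, 1 (0.541%) was lower, and the median log2 ratio was 1.62. Among all 1099 distinct sequences with the same floor, 40.2% were higher and 3.46% lower, with a median of 0.72. The 914 sequences with other names gave 31.6% higher and a median of 0.50. The floor favours a high pool: 62 of the 185 entries reached it through DTT+TUDCA pool 1 alone, and 57 of these count among the higher ones, so their direction follows largely from the floor. With the same floor set on the control pools, which the comparison does not use (an alternative added after the values were seen), 83 of 108 entries (76.9%) were higher and none lower, against 32.7% of 683 sequences.

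These sums rest on DTT+TUDCA pool 1. It was above DTT+TUDCA pool 2 in 172 of 185 entries and the highest of the 4 pools in 170. DTT+TUDCA pool 2 was the lowest of the 4 in 106, and in 105 entries both DTT pools lay between the 2 DTT+TUDCA pools. Taken alone, pool 1 gave 165 entries higher and 2 lower against DTT pool 1, and 164 and 1 against DTT pool 2. Pool 2 alone gave 28 higher and 24 lower against DTT pool 1, and 6 higher and 140 lower against DTT pool 2. The direction of the comparison therefore turned with the pool. The DTT pools differed in the same way to a lesser extent, with pool 2 above pool 1 in 164 entries, and so did the control pools, with pool 2 above pool 1 in 136.

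Both DTT+TUDCA pools were above both DTT pools in 10 entries (5.41%, against 11.3% of all 1099 sequences) and below both in 2 (1.08%, against 6.37%). Both shares were below those of the whole table, which includes these entries.

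The entries fell apart by whether a stretch of their sequence is also listed under a name from outside the grasses. A run of at least 17 bases in common with an entry named from outside the grasses was found in 35 of the 185. This limit was chosen after the values were seen. The split compares listed sequences only and does not measure conservation. For example, tae-miR398 and ata-miR168-5p, with longest runs of 14 and 13 bases, count as without a shared run. In the 150 without a shared run, DTT+TUDCA pool 1 held between 82.5% and 100% of the summed DTT+TUDCA value, with a median of 94.5%. In the 35 with a shared run the range was 0% to 100% and the median 60.2%. All 24 entries with less than 80% in pool 1 belong to the 35, and the other 11 of the 35 were at or above 80%. On the summed pools, 141 of the 150 (94.0%) were higher and none lower, with a median of 1.72, against 12 higher and 1 lower of the 35, with a median of 0.51. Of the 150, 59 reached the floor through pool 1 alone, as did 3 of the 35. With the floor on the control pools, 73 of 77 entries without a shared run were higher, with 84.5% to 97.6% of the DTT+TUDCA value in pool 1, and so were 10 of 31 with one, with 22.3% to 94.99% in pool 1. Entries with means of at least 1000 normalized reads split in the same way, with 9 of 10 higher without a shared run and 3 of 16 with one.

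**Figure D1:**
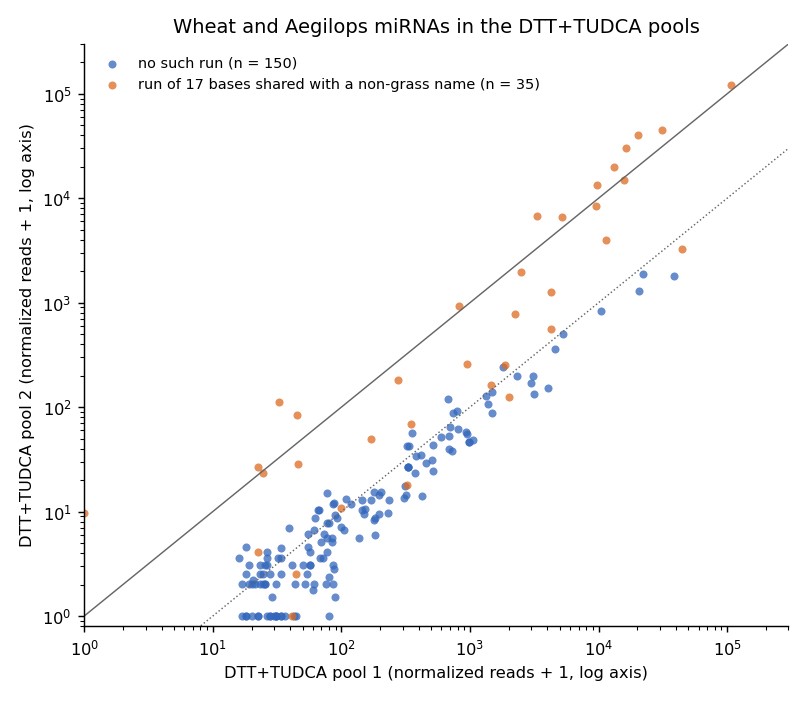
Normalized reads plus 1 of the 185 wheat and Aegilops entries in DTT+TUDCA pool 1 (horizontal) and pool 2 (vertical), on log axes, each point 1 entry. The solid line marks equal values and the dotted line a pool 2 value 10-fold lower; the 150 entries without a shared run of 17 bases lie along the dotted line, and the 35 with one spread from there to above the solid line.

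The names outside the set showed a graded pattern. The median log2 ratio of DTT+TUDCA pool 1 over pool 2 was 3.79 for the 150 entries without a shared run and 0.59 for the 35 with one. It was 0.31 for the 661 sequences named from outside the grasses, 1.10 for the 170 named from other grasses, and 3.19 for 83 predicted miRNAs. The 150 entries took 21.97% of the normalized reads of DTT+TUDCA pool 1 and 1.59% of pool 2. Their share was 2.60% in DTT pool 1 and 9.24% in DTT pool 2, and 2.39% and 7.87% without treatment (control pools 1 and 2). The 35 took between 45.6% and 57.2% of each of the 6 pools. These shares are sums of the same entries, so for the 150 they restate the result and do not add to it. The cause was not tested.

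Among the isoforms of miR396, ata-miR396e-5p was the most abundant entry, at 161547 and 126450 normalized reads with DTT (pools 1 and 2) and at 107299 and 121577 with DTT+TUDCA. Both DTT+TUDCA values lay below both DTT values, with a log2 ratio of -0.33. ata-miR396c-5p was at 47049 and 24373 with DTT and at 30972 and 44726 with DTT+TUDCA, pools that overlap, with a log2 ratio of 0.08. ata-miR396a-5p, the form with the shifted seed, was at 3338 and 11721 with DTT and at 44856 and 3300 with DTT+TUDCA. Its log2 ratio of 1.68 came from pool 1 alone, and its pool 2 value was below both DTT values.

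The miR166 and miR167 isoforms, with 1 seed each, divided in the same way. ata-miR166a-3p was at 34797 and 19335 with DTT and 16211 and 30236 with DTT+TUDCA, with 34.9% of the DTT+TUDCA value in pool 1. ata-miR166c-3p was at 280.0 and 632 with DTT and 1867 and 250.4 with DTT+TUDCA, with 88.2% in pool 1, and ata-miR5168-3p had 92.8% there. Of the miR167 forms, ata-miR167a-5p was at 34106 and 18315 against 20386 and 40547, with 33.5% in pool 1. ata-miR167b-5p, with 1 edit, was at 137 and 494 against 2024 and 124, with 94.2% in pool 1. tae-miR167c-5p lay between them at 4041 and 4698 against 11456 and 3953, with 74.3% in pool 1. With DTT+TUDCA, ata-miR166a-3p and ata-miR167a-5p were lower in pool 1 than in pool 2, while ata-miR166c-3p, ata-miR5168-3p, ata-miR167b-5p and tae-miR167c-5p were higher in pool 1. The rarer tae-miR167b_R+1_2ss9AC21AC, of the same seed as ata-miR167a-5p, was higher in pool 2, at 32.0 and 111. ata-miR396a-5p, ata-miR166c-3p and ata-miR167b-5p have a shared run and are among the 11 at or above 80%.

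Arms that the table places on the same precursor differed too. In 18 such pairs, some of which share an entry, the more abundant arm has a shared run and the other arm has none. In 7 of the 18 the abundant arm is listed at more than 1 precursor, so its reads need not come from the precursor of the pair. In 7 the other arm reached the floor through DTT+TUDCA pool 1 alone. In the 9 pairs with both arms at the floor in the control pools, the median log2 ratio of DTT+TUDCA pool 1 over pool 2 was 1.52 for the abundant arm and 3.48 for the other, which was the larger in 9 of 9. In the 13 pairs of this kind where neither arm has a shared run, the medians were 3.997 and 3.61, and the arms were within 2-fold of each other in 12. Over all pairs, without regard to the control floor, the other arm was the larger in 16 of 18 with a shared run on the abundant arm. tae-miR171a, which targets GRAS factors, was at 2242 and 780 in the DTT+TUDCA pools while tae-MIR171a-p5 of its precursor was at 61.8 and 7.74. ata-miR156a-5p, listed at 3 precursors, was at 2511 and 1952 while ata-miR156a-3p was at 377 and 32.8. In both examples pool 1 was above pool 2 for either arm, by more in the less abundant one.

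**Figure D2:**
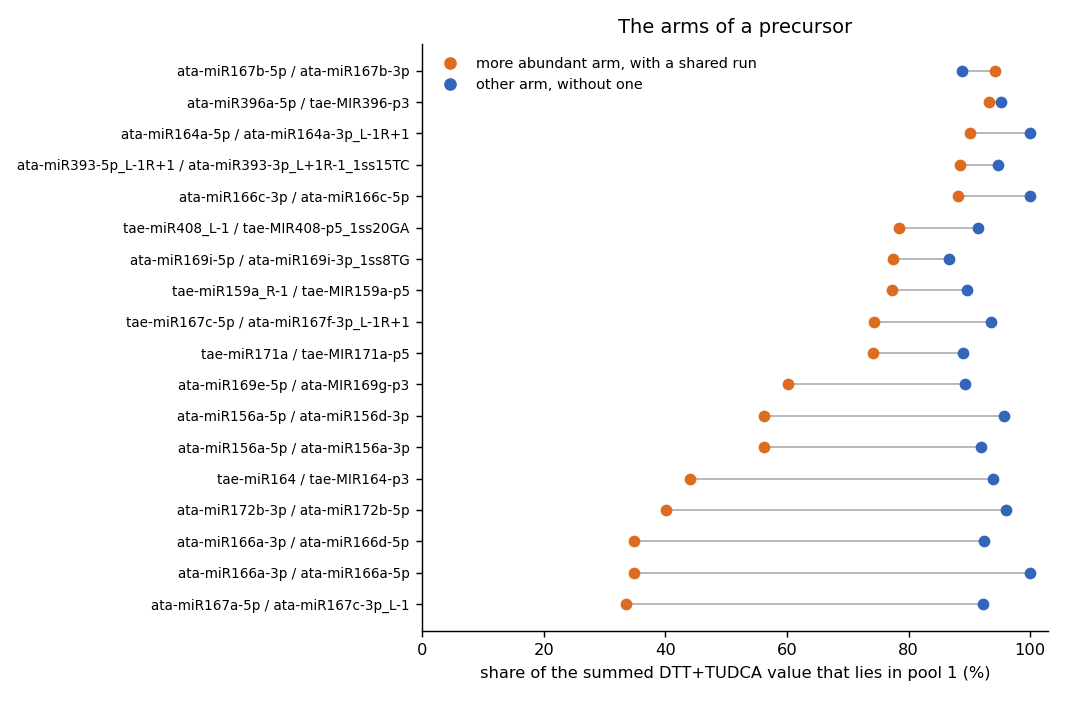
Share of the summed DTT+TUDCA value that lies in pool 1, in percent, for the 18 precursor pairs whose more abundant arm (orange) has a shared run and whose other arm (blue) has none. The abundant arms range from 33.5% to 94.2% and the other arms from 86.6% to 100%, of which 7 reached the floor through pool 1 alone.

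To set the 4 pools side by side within the wheat and Aegilops entries, the values were also divided by median-of-ratios factors from the 147 wheat and Aegilops sequences above 0 in all 4 pools. The DTT pools had factors of 0.510 and 1.19, against 4.73 and 0.365 with DTT+TUDCA. The median of the set comes near 0 by the making of these factors (0.11), so scaled values show only how entries stand relative to each other. For the 150 entries without a shared run, the number with DTT+TUDCA pools 2-fold apart went from 150 to 39, that for the DTT pools from 120 to 59, and that for the control pools from 85 to 56. For the 35 with a shared run it went up, from 19 to 26, from 10 to 22 and from 7 to 18. For the entries with a shared run, the scaled values are thus less alike between pools than the deposited ones. ata-miR396e-5p is an example, with scaled values of 22668 and 333305 in the DTT+TUDCA pools. The factors come from the set itself, where 150 of 185 entries have no shared run. The contrast between the 150 and the 35 after scaling therefore follows largely from the making of the factors.

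After this scaling, 20 of the 185 entries (10.8%) were higher and 3 (1.62%) lower, against 9.19% and 4.82% of all 1099 sequences scaled with the same factors. Both DTT+TUDCA pools were above both DTT pools in 28 entries (15.1%, against 5.73%) and below in 20 (10.8%, against 5.91%). As deposited, these shares of all 1099 sequences were 11.3% and 6.37%. The factors were fitted to wheat and Aegilops sequences, so scaled shares of all sequences, here and below, are not a like background. No excess is read from them. Of the 23 past 2-fold, 17 had means under 25 normalized reads and 16 were listed at 0 in a pool. A value of 0 need not mean that no read was found, since values worth a single read are nearly missing from every pool. In 4 entries, ata-miR5168-5p, ata-MIR169g-p3, tae-MIR1121-p5_2ss16TA21TC and tae-MIR1130b-p5_2ss15GA18GA, both DTT+TUDCA pools were above in the deposited and in the scaled values, and no entry had both below in both. All 4 reached the floor through DTT+TUDCA pool 1 alone. They entered the set by their high value, so nothing is read from this count.

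By role, the regulators of transcription factors come first. For comparison with the counts below, 82.7% of the 185 entries and 40.2% of all 1099 sequences were higher as deposited. Of these sets, 0.541% and 3.46% were lower. Without a shared run 141 of 150 entries were higher, and with one 12 of 35. The list of phase change, with miR156, which targets SPL factors, and miR172, had 6 of 10 entries higher and none lower, with a median log2 ratio of 1.28 as deposited and 0.13 scaled. The miR159 and miR319 list, with targets among GAMYB and TCP factors, had 2 of 3 higher, and miR396 had 3 of 6, with scaled medians of 0.16 and 0.19. The list of miR164, miR166, miR169, miR171 and miR394 had 13 of 24 higher and 1 lower, with medians of 1.24 as deposited and 0.017 scaled. tae-miR319 was at 14270 and 18004 with DTT and 15735 and 14877 with DTT+TUDCA. ata-miR394-5p, which targets an F-box gene, was at 9172 and 7881 against 9594 and 8466. Both differed less between the summed treatments than between the DTT pools, with log2 ratios of -0.08 and 0.08.

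tae-MIR159a-p5, the other arm of the miR159 precursor, was chosen after its values were seen. It was at 30.3 and 149 with DTT and at 788 and 91.3 with DTT+TUDCA, with a log2 ratio of 2.29. Scaled, it was at 59.4 and 125 against 167 and 250.2, so that both DTT+TUDCA pools were higher, with a log2 ratio of 1.17. The mature tae-miR159a_R-1 was at 1427 and 1271 with DTT and 4234 and 1252 with DTT+TUDCA, with log2 ratios of 1.02 as deposited and 0.16 scaled.

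The auxin list (miR160, miR167, miR390, miR393) had 7 of 11 entries higher and none lower, with medians of 1.31 as deposited and 0.26 scaled. As deposited, 82.7% of the 185 entries and 40.2% of all 1099 sequences were higher. tae-miR160, which targets auxin response factors, was at 12655 and 8845 with DTT and 9673 and 13412 with DTT+TUDCA, pools that overlap, with a log2 ratio of 0.10. tae-miR167b_R+1_2ss9AC21AC was higher in both DTT+TUDCA pools as deposited. It was at 19.9 and 16.6 with DTT and at 32.0 and 111 with DTT+TUDCA, and the control pools held 14.1 and 23.8. It has the miR167 seed, differs from ata-miR167a-5p by 1 edit, and is among the entries with a shared run. Pool 1 held 22.3% of its summed DTT+TUDCA value, and scaled the pools overlapped, at 38.9 and 13.9 against 6.75 and 305.

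In the list of copper, redox and laccase regulators, all 10 entries were higher on the summed pools, with a median log2 ratio of 2.13. Of all 185 entries 82.7% were higher, of the 150 without a shared run, to which 9 of these 10 belong, 94.0%, and of all sequences 40.2%, so the count is near that of its kind. The floor was reached through DTT+TUDCA pool 1 alone by 4 of the 10. tae-miR398, which targets copper/zinc superoxide dismutase, was at 78.4 and 148 with DTT and at 812 and 60.8 with DTT+TUDCA. ata-miR528-5p, which targets an ascorbate oxidase in rice, was at 73.1 and 204 against 935 and 57.2. The miR397 family targets laccases. tae-miR397-5p, listed on the 3' arm despite its name, was at 8.36 and 25.9 against 169 and 11.9. tae-MIR397-p5, the more abundant arm, was at 23.0 and 49.7 against 372 and 22.2. In each of them DTT+TUDCA pool 1 was the highest of the 4 pools. Pool 2 was the lowest for tae-miR398, ata-miR528-5p and tae-MIR397-p5, and between the DTT pools for tae-miR397-5p.

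Scaled within the set, the copper list had 3 of 10 entries higher and none lower, with a median log2 ratio of 0.57. In 7 entries both DTT+TUDCA pools were above both DTT pools. Scaled likewise, with factors fitted to wheat and Aegilops sequences, 9.19% of all 1099 sequences were higher and 5.73% had both pools above. For the 150 entries without a shared run these shares were 12% and 18.7%. tae-miR398 had scaled control values of 26.6 and 18.4, then 154 and 124 with DTT and 172 and 167 with DTT+TUDCA, with a log2 ratio of 0.28 between the treatments. The passenger strand ata-miR398f-5p_L+1R-1 was at 23.6 and 7.66, then 186 and 234, then 289 and 288, with a log2 ratio of 0.46. tae-miR397-5p was at 0 and 3.06, then 16.4 and 21.8, then 35.8 and 32.5, and tae-MIR397-p5 at 0 and 4.59, then 45.0 and 41.7, then 78.6 and 60.8. For ata-miR528-5p the scaled DTT pools (143 and 171) and DTT+TUDCA pools (198 and 157) overlapped. Apart from ata-miR528-5p, the scaled DTT+TUDCA pools of these entries, picked with values in view, were above the DTT pools. The pools of both treatments were above the control pools in all 5. tae-MIR398-p5, the other arm of the tae-miR398 precursor, was at 8.19 and 4.23 with DTT and 6.30 and 2.83 with DTT+TUDCA. Its pools overlapped, with a log2 ratio of -0.41, the lowest of the list, and its scaled control values were 0 and 3.06. The 3 scaled entries past 2-fold were ata-miR398g-5p, ata-miR528-3p and tae-MIR408-p5_1ss20GA, with no deposited DTT value above 7.92. All 3 reached the floor through DTT+TUDCA pool 1 alone and are among the 7 with both pools above. The count of 3 is therefore not read as a result.

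tae-miR408_L-1, a regulator of the copper protein plantacyanin and the 1 member of the list with a shared run, was at 247.6 and 237.6 with DTT and 940 and 258.4 with DTT+TUDCA. Both DTT+TUDCA pools were above both DTT pools as deposited, with a log2 ratio of 1.30. Scaled, the pools overlapped, at 485 and 199.6 against 199 and 708. Its other arm tae-MIR408-p5_1ss20GA, without a shared run, was at 2.09 and 7.92 against 60.7 and 5.67.

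**Figure D3:**
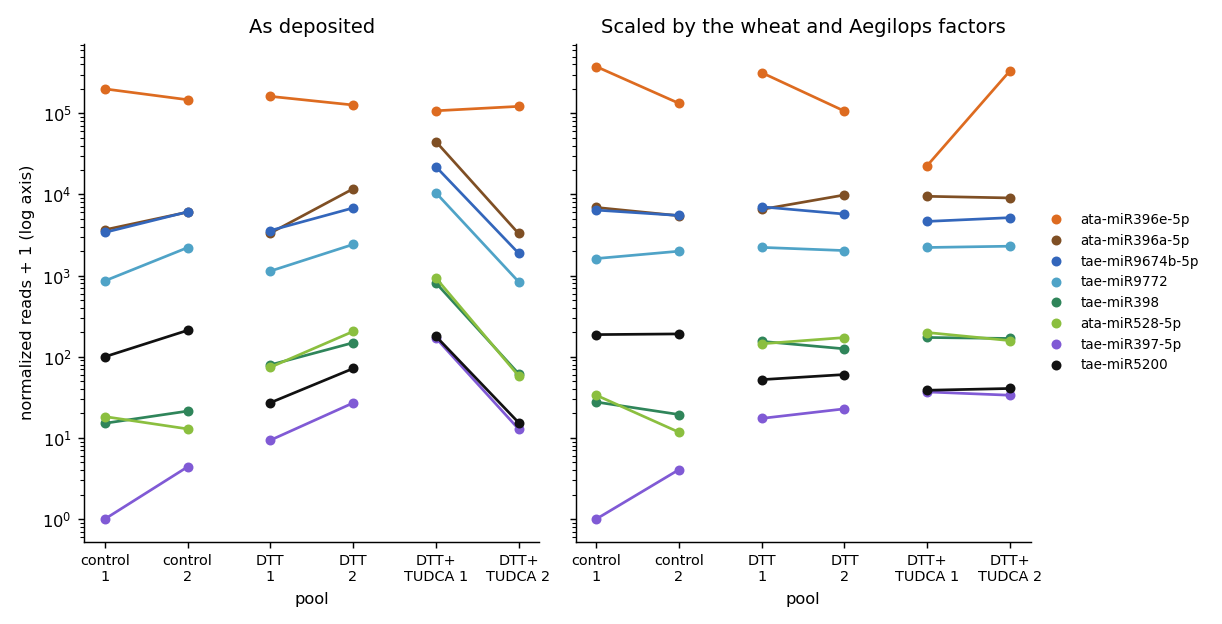
Normalized reads plus 1 (log axis) of 8 entries in the 6 pools, as deposited (left) and divided by the wheat and Aegilops factors (right), with lines joining the pools of 1 treatment. Scaling brought together the pools of tae-miR398, tae-miR5200 and tae-miR9772 and drew apart those of ata-miR396e-5p. Scaled tae-miR5200 stood at 186 and 190 without treatment, at 51.2 and 59.3 with DTT, and at 37.6 and 39.6 with DTT+TUDCA.

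tae-miR5200 targets FT genes of flowering time in Brachypodium and was the only entry of the list with miR444 that reached the floor. It was at 26.1 and 70.6 with DTT and 178 and 14.4 with DTT+TUDCA, with a log2 ratio of 0.99. Scaled, it was at 51.2 and 59.3 with DTT and 37.6 and 39.6 with DTT+TUDCA, with a log2 ratio of -0.51, so that its direction turned with the scaling. ata-miR168-5p, which targets ARGONAUTE1, was at 55.0 and 146 against 595 and 50.9, and scaled at 108 and 122 against 126 and 139. Its log2 ratio was 1.68 as deposited and 0.20 scaled, and its other arm ata-miR168-3p had 1.43 and 0.25. The nutrient entries were low, with tae-miR395a_L-1, of the sulphate family, at no more than 21.3 in any of the 4 pools. ata-miR399a-3p, of the family that targets the phosphate regulator PHO2, was at no more than 19.5. Of the families of phased small RNAs in reproductive tissue, 1 entry was listed and it was under the floor.

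The list of young wheat families was the largest, with 80 entries, of which 76 were higher and none lower, at a median log2 ratio of 1.62. It goes by family number alone. So it also holds ata-miR5168-3p and ata-miR5168-5p, of an miR166-type hairpin. It holds tae-MIR9668-p3_1ss4TC too, nearly the same sequence as the repeat-derived tae-MIR1128-p5_1ss9AG. None of the 80 has a shared run, and the count is near the 94.0% of the 150 such entries, against 40.2% of all sequences. Of the 80, 24 reached the floor through DTT+TUDCA pool 1 alone. tae-miR9674b-5p had 3590 and 6810 normalized reads with DTT and 22002 and 1886 with DTT+TUDCA, with a log2 ratio of 1.2. tae-miR9772 was at 1135 and 2418 against 10494 and 839, with 1.67. tae-miR5048-5p was at 411 and 1107 against 4066 and 150.1, with 1.47. In these examples DTT+TUDCA pool 1 was above and pool 2 below both DTT pools.

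Scaled, the young list had a median of 0.053, with 6 entries higher and 1 lower. Of all 1099 sequences scaled likewise, 9.19% were higher and 4.82% lower, and of the 150 without a shared run 12% and 1.33%. tae-miR9772 was then at 2223 and 2032 with DTT and 2217 and 2300 with DTT+TUDCA, pools that overlap. For tae-miR9674b-5p the DTT values were 7033 and 5723 and the DTT+TUDCA values 4648 and 5170, with both DTT+TUDCA pools lower and a log2 ratio of -0.38. tae-miR9774_L+2, the most abundant of the list, was at 3677 and 12010 against 4394 and 3568, with overlapping pools and a log2 ratio of -0.98. In all, 9 entries of the list had both scaled DTT+TUDCA pools above and 13 both below. For all 1099 sequences, scaled by factors fitted to wheat and Aegilops sequences, the shares were 5.73% and 5.91%. They were 18.7% and 12.7% of the 150 without a shared run. Of the 13, 3 (tae-MIR5048-p3_1, tae-MIR5048-p3_2 and tae-MIR5048-p3_3) have the same values in every pool. Outside the lists, tae-miR7757-5p_1ss2TC was at 4493 and 11225 with DTT and 38427 and 1784 with DTT+TUDCA, with a log2 ratio of 1.36, and scaled at 8803 and 9432 against 8118 and 4891, with -0.49. ata-miR9863a-3p_1ss9TC, of a family that targets Mla resistance genes in barley, was at 134 and 842 against 3161 and 131. Its scaled pools overlapped, at 263 and 708 against 668 and 360.

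The repeat-derived families miR1117 to miR1139, which resemble inverted-repeat transposons, had 45 sequences, of which 28 reached the floor. Of the 28, 21 reached it through DTT+TUDCA pool 1 alone, so that all 28 were higher follows in most of them from the floor, and nothing is read from the count. Their medians were 2.00 as deposited and 0.43 scaled. They were low, with values summed over the 28 of 37.6 and 332 with DTT and 1528 and 57.4 with DTT+TUDCA. The 2 most abundant, tae-MIR1137a-p3_1ss8CT and tae-miR1122b-3p_1ss11GT, were at 3.13 and 32.8 against 180.1 and 4.98, and at 0 and 20.9 against 104 and 5.67. Scaled, 5 of the 28 were higher and none lower. Of all 1099 sequences scaled likewise, 9.19% were higher and 4.82% lower, and of the 150 without a shared run 12% and 1.33%.

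**Figure D4:**
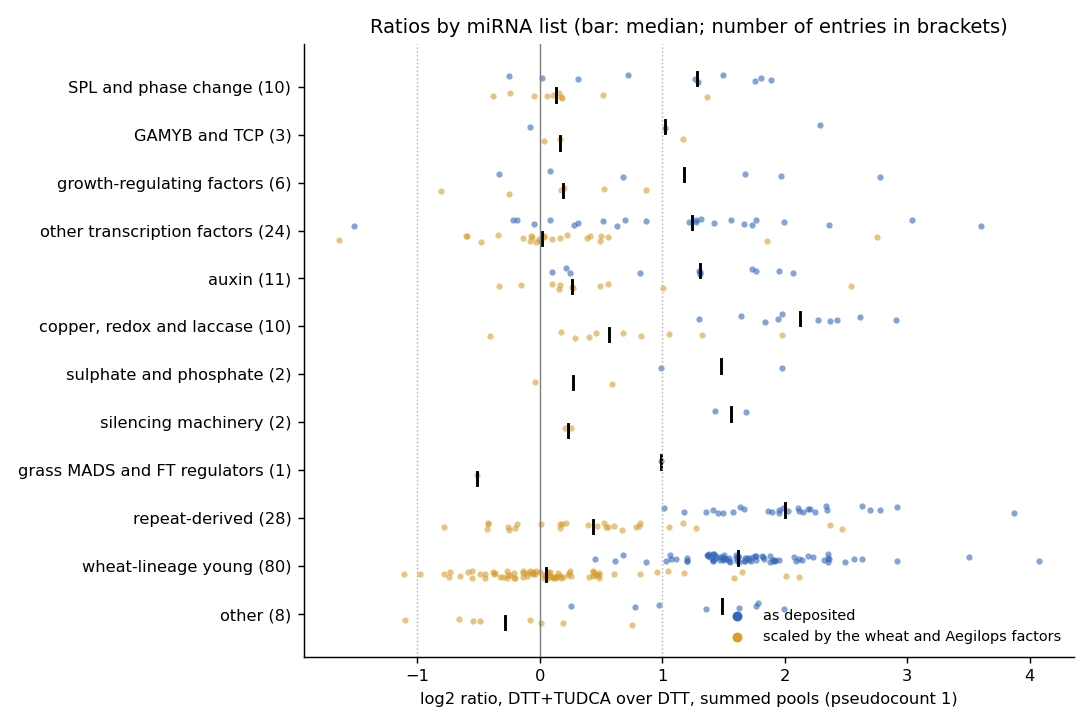
Log2 ratio of DTT+TUDCA over DTT on summed pools for every entry, by list, as deposited (blue) and after division by the wheat and Aegilops factors (yellow), with bars at the medians and dotted lines at 2-fold. The deposited medians of the repeat-derived and copper lists are 2.00 and 2.13, and their scaled medians 0.43 and 0.57.

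The 12 entries whose deposited pools did not overlap are described together, and these sequences stand for them.
ata-miR5168-5p: gGGTTGTTgtctggttcaagg
tae-miR167b_R+1_2ss9AC21AC: tGAAGCTGccagcatgatctca
ata-miR172c-5p_R-3: gTGGCATCatcaagattcac
ata-miR156a-5p: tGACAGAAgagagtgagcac
tae-miR164: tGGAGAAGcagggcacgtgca
ata-miR171b-3p_L+4_1ss16TC: gATCTGATtgagccgcgccaatatc
ata-miR5168-5p, the other arm of an miR166-type hairpin, was at 3.13 and 2.16 with DTT and 99.1 and 6.19 with DTT+TUDCA, and the control pools held 9.42 and 8.49. Its log2 ratio of 4.08 was the highest of all 185 entries, and scaled it was at 6.14 and 1.81 against 20.9 and 16.96, with 2.12. ata-miR156a-5p was at 1646 and 1061 against 2511 and 1952, with a log2 ratio of 0.72, and the control values of 1486 and 1864 were below both DTT+TUDCA values. tae-miR164 was at 5091 and 4485 against 5227 and 6639, with 0.31. ata-miR172c-5p_R-3 was at 11.5 and 7.20 against 21.3 and 25.8, with 1.29, but the control pools held 18.8 and 62.8. Of the 10 entries above, 7 were past 2-fold.

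The other entries of the 10 were ata-MIR171d-p3_1ss18CT, with a log2 ratio of 0.51, and 3 low ones, tae-MIR1130b-p5_2ss15GA18GA, ata-MIR169g-p3 and tae-MIR1121-p5_2ss16TA21TC. These 3 had log2 ratios of 3.87, 3.60 and 2.78 and were listed at 0 in DTT pool 1 and at no more than 2.16 in DTT pool 2. Like ata-miR5168-5p, they reached the floor through DTT+TUDCA pool 1 alone, so their direction follows largely from the floor. tae-MIR5050-p3, tae-MIR5175-p3 and tae-MIR1136-p3_1ss19GA, among the 8 highest ratios of the set, were also listed at 0 in DTT pool 1, and their pools overlapped. ata-miR171b-3p_L+4_1ss16TC, a form of miR171 (which targets GRAS factors) with 4 extra bases at its start, was the only entry at least 2-fold lower. It was at 12.5 and 14.04 with DTT and at 0 and 8.64 with DTT+TUDCA, with a log2 ratio of -1.52. It was also listed at 0 in control pool 1 and at 3.39 in control pool 2.

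Depth limits the low entries. From the steps between values, 1 read was worth between 0.516 and 1.07 normalized reads in the 4 pools, and the wheat and Aegilops sequences held between 354523 and 642224 implied reads. With 95% Poisson intervals on those reads, which cover counting error only, the 4 pools stayed apart in 2 of the 12 entries, ata-miR156a-5p and ata-miR396e-5p. The interval of ata-miR156a-5p ran from 1566 to 1730 and from 1008 to 1117 with DTT, and from 2411 to 2615 and from 1890 to 2015 with DTT+TUDCA.

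**Figure D5:**
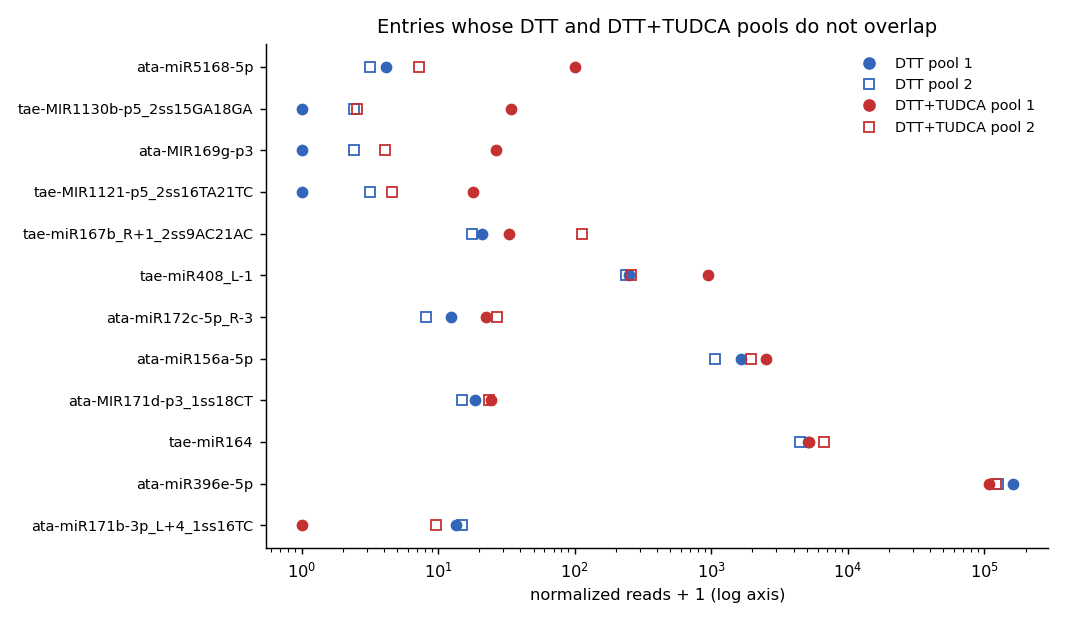
Normalized reads plus 1 (log axis) of the 12 entries whose DTT pools (blue) and DTT+TUDCA pools (red) do not overlap, with pool 1 as filled circles and pool 2 as open squares. The gap between treatments is small for tae-miR164 and ata-miR396e-5p, and for ata-miR5168-5p pool 1 is at 99.1 and pool 2 at 6.19.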

How the data were processed

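Small RNA of wheat leaves was read from TruSeq libraries as 50-base single ends, per the labels' protocols. The values are signal, namely normalized reads per sequence and pool that the authors deposited in 1 table, per the file headers. The aligner, counter, filters and normalization rule were not given in the sources used here. Precursor positions name TGACv1 scaffolds. Read counts were not in the table used here, so no count test was run.

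Rows were reduced to 1 per distinct sequence with Python 3.11.15, pandas 2.3.3 and numpy 2.4.6, and intervals came from scipy 1.17.1. The 2 pools of a treatment were summed, with a floor of 20 over the 4 pools, a pseudocount of 1 (which shrinks the ratios of low entries) and a limit of 2-fold. Entries that share reads can hold equal values: the 185 entries hold 180 distinct sets of 4 values. Between 95.1% and 97.3% of a pool's values came to whole reads of 1 step, within 0.01 reads. The ratio, scaling and overlap calculations were tested on simulated pools, and the shared-run calculation on short made-up sequences. Each simulated pool had a common factor for all sequences, so the difference by kind of sequence seen here was not covered. No column of the table was left out for want of a sample.

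Lists were matched on the family number. The entries, lists and naming rule were chosen with earlier results of these data known. The rule took the 8 highest and 8 lowest ratios past 2-fold, the 8 largest each way among entries whose pools do not overlap, the 5 most abundant, and the 2 most abundant of each list. Isoforms and other arms set beside a named entry, and tae-miR398, ata-miR528-5p, the miR397 sequences, tae-miR171a, tae-miR9772, tae-miR5048-5p and ata-miR9863a-3p_1ss9TC, were picked with their values in view. So was the split by shared run, with species names sorted into grasses and others by hand. Other scalings, floors, folds, ways of listing and single pools were tried as alternatives.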

Additional observations from a re-analysis of the deposited data

How the results depend on the processing

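The pools decided the direction. Left out or taken alone in turn, they gave from 5 to 166 entries at least 2-fold higher and from 1 to 140 at least 2-fold lower, against 153 and 1 on the sums, and a median log2 ratio from -1.79 to 3.42. The median was below 0 without DTT+TUDCA pool 1 (-1.27) and with DTT+TUDCA pool 2 alone against either DTT pool (-0.15 and -1.79). Both DTT+TUDCA values lay above both DTT values in 15 to 173 entries and below in 4 to 108, where a pool left out was replaced by the other. Median-of-ratios scaling gave 82 entries higher over all sequences. Over wheat and Aegilops sequences it gave 20 higher and 3 lower, 28 with both pools above and 20 below. The geometric mean of the pools gave 61 higher. A floor of 100 gave 86 higher and 0 lower, 5 above and 1 below, in a smaller set of 110. With exactly registered sequences alone the counts were 39, 0, 3 and 1, of 58. No floor gave 3 lower. A floor of 20 on the control pools gave 83 higher, 0 lower, 6 above and 1 below, of 108. Entries without a shared run gave 0 lower, 4 above and 0 below, and entries with one gave 12 higher and 6 above. Shared runs of 15 and 19 bases left 149 and 153 entries without one. Equal totals, a pseudocount of 5, a 1.5-fold limit, all rows as listed and merged equal values kept the counts of higher entries between 128 and 166. Scaling to wheat and Aegilops sequences turned the log2 ratios of tae-miR5048-5p to -0.45, tae-miR7757-5p_1ss2TC to -0.49 and tae-miR9674b-5p to -0.38. Over the pools left out or taken alone, log2 ratios above 1 on the summed pools turned sign for some entries and ran from -0.77 to 2.65 for ata-miR168-3p, from -1.51 to 3.42 for ata-miR168-5p, from -1.83 to 3.75 for ata-miR396a-5p, from -1.40 to 3.84 for ata-miR398f-5p_L+1R-1 and from -0.13 to 5.70 for ata-miR398g-5p. Other ratios of this kind ran from -1.35 to 4.07 for ata-miR399a-3p, from -1.73 to 5.82 for tae-MIR1136-p3_1ss19GA, from -2.60 to 5.63 for tae-MIR1137a-p3_1ss8CT, from -0.70 to 4.68 for tae-MIR159a-p5 and from -0.38 to 5.58 for tae-MIR164-p3. Under the same pools, the ratios ran from -1.96 to 5.76 for tae-MIR5050-p3, from -0.18 to 6.07 for tae-MIR5175-p3, from -1.79 to 7.71 for tae-miR1122b-3p_1ss11GT, from -0.19 to 1.74 for tae-miR159a_R-1 and from -1.27 to 3.36 for tae-miR398. Further ratios ran from -2.88 to 3.31 for tae-miR5048-5p, from -2.65 to 3.10 for tae-miR7757-5p_1ss2TC, from -1.85 to 2.62 for tae-miR9674b-5p and from -1.53 to 3.21 for tae-miR9772. The cause was not tested. No paired analysis was possible because each treatment is 1 sample. Values worth 1 read number 2 to 7 in a pool, and those worth 2 reads 147 to 214. A value of 0 therefore need not mean that no read was found. Ratios of entries with means under 25 rest on few reads.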

Other observations

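First base and arm, which the choice of entries did not use, gave further values. Of the 105 entries that begin with T, the usual first base of miRNAs loaded into AGO1, 87 were at least 2-fold higher. So were 27 of 34 that begin with A, 24 of 26 with G and 15 of 20 with C. The share was 82.7% of all 185 entries and 40.2% of all 1099 sequences. By arm, 78 of 94 were higher on the 5' side and 75 of 91 on the 3' side, beside the same 2 shares. The 3 entries of miR172 with the seed GAATCTT had 40.01% to 61.7% of their DTT+TUDCA value in pool 1, and none was 2-fold higher or lower.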
